A study of Mus musculus with 32 samples.

Results

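The 48 genes described here encode nuclear subunits of respiratory chain complexes I to IV in the mouse, together with 5 isoforms that are known for expression in particular tissues. They were matched by symbol to the Entrez gene identifiers of the deposited tables, and all 48 were found among the 20612 genes listed in at least 1 library. Of the 48, 23 were general subunits of complex I, 4 of complex II, 5 of complex III and 11 of complex IV, and the 5 tissue isoforms were Ndufa4l2, Cox4i2, Cox6a2, Cox6b2 and Cox7a1. RNA was sequenced from J1 mouse embryonic stem cells (ESCs, 129S4/SvJae background) and from their derivatives, each exposed to a bisphenol at 100 nM, which was BPA, BPF or BPS (bisphenols A, F and S), or to the solvent DMSO. The 8 stages were ESCs at day 0, embryoid bodies (EBs, free-floating aggregates that form derivatives of all germ layers) at days 4, 6, 9, 12 and 20, EBs at day 8 that had received retinoic acid for 4 days (RA EBs), and day 10 monolayer cultures of neural progenitors (NPCs). Between NPCs and EBs, a difference of stage cannot be told apart from that between monolayer and aggregate culture. Each stage and treatment was represented by 1 library, which gave 32 libraries in all, and the 4 libraries of a stage served as its replicates. All cultures derived from the single J1 line, and nothing in the labels says that the libraries of a stage came from independent differentiations. The p-values therefore refer to the spread among libraries of the same stage, which may be technical. For the isoform ratios this spread included the treatments. For the tests of counts between stages it was pooled over all stages, with treatment effects shared by the stages taken out and treatment effects of single stages left in.

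The respiratory chain passes electrons from NADH through complex I, and from succinate through complex II, to complex III, cytochrome c and finally complex IV (cytochrome c oxidase), which reduces oxygen to water. Complex IV carries several small nuclear subunits that exist as paralogous isoforms: a general form in most cells and a second form in muscle, lung, testis or under low oxygen. Embryonic stem cells are known for a high rate of glycolysis, and neural differentiation is known for a shift towards oxidative metabolism.

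The libraries held 9574833 to 11070149 expected read counts. No mitochondrially encoded gene was listed, so the core subunits encoded by mitochondrial DNA were not analysed here. In day 4 EBs 9 of 10 pluripotent cell markers were lower than in ESCs and 1 was higher. The cultures labelled as neural progenitors had higher levels of all 12 neuron markers than RA EBs and lower levels of all 16 cell cycle genes (median log2 change -2.23), and of 7 astrocyte markers tested 2 were higher and 3 lower, so they are called NPCs here by their label only. Within a stage the DMSO library had the lowest mean correlation with the other 3 libraries at 7 of the 8 stages, with means from 0.959 at day 12 to 0.987 at day 4. With 1 DMSO library per stage, an effect of the bisphenols and any other difference of that library from its stage mates cannot be told apart.

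The tissue isoforms and their general partners are separate genes, and their coding sequences show how far apart they lie. The 3 pairs that changed most clearly between stages are printed here from the annotated GRCm38 transcripts (GENCODE M21), with capitals on the bases that differ from the partner or have no counterpart in it. Cox6b2, on chromosome 7 (chr7:4751792-4753094), is known as the testis form of subunit 6B, and Cox6b1 (chr7:30616971-30626114) is its general form. Cox7a1 (chr7:30184171-30186030) is known as the heart and muscle form of subunit 7A, and Cox7a2 (chr9:79755241-79771422) as the general form. Ndufa4l2 (chr10:127509274-127517154) is known as a target of hypoxia-inducible factors that lowers complex I activity, and Ndufa4 (chr6:11900372-11907450), first described as a complex I protein, is now regarded as a subunit of complex IV and is counted there.
Cox6b2 coding sequence: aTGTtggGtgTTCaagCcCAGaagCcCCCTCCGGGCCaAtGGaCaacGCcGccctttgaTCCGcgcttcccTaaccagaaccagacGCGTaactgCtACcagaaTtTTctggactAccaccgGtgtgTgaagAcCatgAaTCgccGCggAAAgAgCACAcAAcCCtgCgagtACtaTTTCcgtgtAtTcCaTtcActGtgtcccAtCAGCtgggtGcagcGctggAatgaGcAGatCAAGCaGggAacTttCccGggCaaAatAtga
Cox6b1 coding sequence: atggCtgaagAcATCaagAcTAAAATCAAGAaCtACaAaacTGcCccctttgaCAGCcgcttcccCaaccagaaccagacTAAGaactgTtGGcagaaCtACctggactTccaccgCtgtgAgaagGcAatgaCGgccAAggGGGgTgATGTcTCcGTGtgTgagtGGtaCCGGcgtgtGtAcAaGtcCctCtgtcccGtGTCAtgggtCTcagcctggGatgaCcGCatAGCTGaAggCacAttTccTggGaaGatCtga
Cox7a1 coding sequence: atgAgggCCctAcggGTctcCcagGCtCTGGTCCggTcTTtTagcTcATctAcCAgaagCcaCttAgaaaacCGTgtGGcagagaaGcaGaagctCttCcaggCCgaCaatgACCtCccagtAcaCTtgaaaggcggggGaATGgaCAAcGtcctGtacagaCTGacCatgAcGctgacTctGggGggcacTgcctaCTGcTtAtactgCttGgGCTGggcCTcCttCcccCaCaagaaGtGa
Cox7a2 coding sequence: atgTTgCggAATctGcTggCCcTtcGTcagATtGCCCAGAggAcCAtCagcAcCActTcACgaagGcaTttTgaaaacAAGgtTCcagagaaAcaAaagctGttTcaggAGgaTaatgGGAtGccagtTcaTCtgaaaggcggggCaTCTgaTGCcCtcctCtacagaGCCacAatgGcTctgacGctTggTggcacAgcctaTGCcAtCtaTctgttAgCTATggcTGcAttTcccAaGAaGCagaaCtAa
Ndufa4l2 coding sequence: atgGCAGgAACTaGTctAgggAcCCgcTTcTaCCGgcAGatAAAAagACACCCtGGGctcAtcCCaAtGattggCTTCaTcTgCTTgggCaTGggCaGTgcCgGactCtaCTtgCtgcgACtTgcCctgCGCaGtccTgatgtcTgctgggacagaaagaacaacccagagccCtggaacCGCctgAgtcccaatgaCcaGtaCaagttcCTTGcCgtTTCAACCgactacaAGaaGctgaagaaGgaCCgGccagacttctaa
Ndufa4 coding sequence: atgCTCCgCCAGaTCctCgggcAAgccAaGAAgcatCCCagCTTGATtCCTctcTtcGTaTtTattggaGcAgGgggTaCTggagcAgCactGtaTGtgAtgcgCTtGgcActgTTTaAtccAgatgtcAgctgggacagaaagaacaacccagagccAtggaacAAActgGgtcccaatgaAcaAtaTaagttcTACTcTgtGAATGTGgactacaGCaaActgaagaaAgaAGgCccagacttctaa

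The capitals are spread along the whole length of each pair, and identity over the aligned coding bases was 60.6% for Cox6b2 and Cox6b1, 62.1% for Cox7a1 and Cox7a2, and 62.9% for Ndufa4l2 and Ndufa4. It was 63.0% for Cox4i2 and Cox4i1 and 59.0% for Cox6a2 and Cox6a1. The longest run of identical bases shared by the transcripts of a pair was 28 bases, in Ndufa4l2 and Ndufa4, and 12 to 14 bases in the other 4 pairs, so reads longer than this are told apart within a pair. Ndufa4l2 overlaps Shmt2, Cox4i2 overlaps Bcl2l1, Cox6a2 overlaps Itgad and Cox7a2 overlaps Tmem30a in the annotation. Among other members, Uqcrq overlaps Gdf9, Ndufa2 overlaps Tmco6, Ndufv2 overlaps Ankrd12 and Uqcrc2 overlaps Pdzd9. The sources used here do not state whether strand was used in counting, so reads of such neighbours may be shared.

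The region before the start of transcription also differs between the isoforms. The 250 bases upstream of the RefSeq start of 4 genes are shown (GRCm38.p6, strand of the gene), with CpG dinucleotides in capitals. They let the general and the tissue form of 2 subunits be set side by side. For Cox7a2 the RefSeq start used lies within the span of the transcript printed above (chr9:79755241-79771422), so its window is not upstream of that transcript. The windows of the other genes adjoin their printed transcripts.
Cox6b2, chr7:4753095-4753344, minus strand: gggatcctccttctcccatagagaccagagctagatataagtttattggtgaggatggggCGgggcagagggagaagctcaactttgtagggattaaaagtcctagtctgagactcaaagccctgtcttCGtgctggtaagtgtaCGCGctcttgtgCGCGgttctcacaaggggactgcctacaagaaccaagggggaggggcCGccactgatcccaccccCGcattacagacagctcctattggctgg
Cox6b1, chr7:30626115-30626364, minus strand: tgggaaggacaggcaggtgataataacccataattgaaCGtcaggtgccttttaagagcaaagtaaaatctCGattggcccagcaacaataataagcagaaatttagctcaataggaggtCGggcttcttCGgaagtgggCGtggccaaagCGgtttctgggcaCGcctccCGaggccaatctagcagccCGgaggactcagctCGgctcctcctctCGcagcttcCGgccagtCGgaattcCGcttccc
Cox7a1, chr7:30183921-30184170, plus strand: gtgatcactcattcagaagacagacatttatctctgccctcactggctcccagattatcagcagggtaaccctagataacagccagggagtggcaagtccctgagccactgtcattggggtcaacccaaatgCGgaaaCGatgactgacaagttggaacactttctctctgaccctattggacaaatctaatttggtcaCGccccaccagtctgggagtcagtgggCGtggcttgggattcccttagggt
Cox7a2, chr9:79759854-79760103, minus strand: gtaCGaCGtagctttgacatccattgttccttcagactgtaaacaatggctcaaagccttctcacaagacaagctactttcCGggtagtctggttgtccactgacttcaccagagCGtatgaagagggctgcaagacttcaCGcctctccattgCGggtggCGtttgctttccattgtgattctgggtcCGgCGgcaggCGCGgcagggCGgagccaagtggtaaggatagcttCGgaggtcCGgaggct

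Cox6b2 and Cox7a1 held 8 and 4 CpG dinucleotides in this window, against 14 in Cox6b1 and 14 in Cox7a2. The median was 14 over the 36 members with a promoter entry and 6 over all 27025 promoters of this length. Of the motifs searched on both strands, GCGCATGC (the core of the NRF1 motif) was found in 4 of the 36 member promoters and in 2.32% of all promoters, CCGGAAG (the ETS core that GABP also reads) in 5 and in 7.05%, and AAGGTCA (the estrogen-related receptor motif) in 1 and in 4.05%. The hypoxia response core ACGTG was in 6 member promoters and in 16.6% of all, and TATAAA in 4 and in 13.0%.

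The tissue isoforms carried the widest stage differences of the set: 4 of the 5 were lower in day 4 EBs than in ESCs, and all 5 were lower in NPCs than in ESCs. Levels are given as FPKM (fragments per kilobase of transcript, scaled to library size) in the order BPA, BPF, BPS, DMSO. In RNA from whole cultures, fewer cells of a type and less RNA per cell cannot be told apart. Ndufa4l2 stood at 45.58, 42.02, 39.63 and 45.19 FPKM in ESCs, 4.10, 3.12, 3.10 and 9.02 FPKM at day 4, and 1.89, 2.84, 2.39 and 1.44 FPKM at day 6. It was at 6.60, 5.76, 5.01 and 6.69 FPKM at day 9, at 5.05, 6.10, 4.08 and 5.41 FPKM at day 12 and at 20.71, 30.30, 27.58 and 11.04 FPKM at day 20. In RA EBs it was 0.57, 0.85, 0.75 and 0.61 FPKM and in NPCs 0.93, 0.31, 0.31 and 0.82 FPKM. Every ESC library thus lay above every other library, the day 20 EBs came next, and both neural stages lay under 1 FPKM and overlapped each other.

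Cox7a1 was likewise highest in ESCs, with 40.38, 31.39, 28.58 and 33.73 FPKM, and stood at 9.59, 8.84, 6.92 and 7.56 FPKM at day 4. From day 6 to day 20 its stage means lay between 5.13 and 7.72 FPKM. RA EBs had 2.53, 2.26, 1.99 and 1.88 FPKM and NPCs 0.55, 0.83, 1.38 and 1.10 FPKM. The ESC libraries did not overlap any other stage, and the NPC libraries lay below all RA EB libraries.

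Cox6b2 was the most abundant tissue isoform and followed another course, with its highest values in EBs. It had 82.92, 73.25, 83.39 and 81.19 FPKM in ESCs, 107.23, 125.85, 113.89 and 108.42 FPKM at day 4, and 80.66, 72.91, 65.49 and 89.22 FPKM at day 6. Values were 174.78, 98.47, 118.77 and 182.07 FPKM at day 9, 163.15, 140.15, 113.79 and 231.52 FPKM at day 12, and 95.24, 108.35, 104.78 and 84.70 FPKM at day 20. RA EBs held 45.13, 48.67, 44.31 and 60.10 FPKM and NPCs 20.21, 13.66, 21.58 and 23.43 FPKM. The neural stages lay below every ESC and EB library and did not overlap each other, while days 9 and 12 overlapped and had the widest spread.

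Cox4i2, the lung form of subunit 4 that responds to low oxygen, and Cox6a2, the heart and skeletal muscle form of subunit 6A, were weakly expressed throughout. Cox4i2 had 5.31, 4.91, 5.98 and 5.28 FPKM in ESCs, stage means of 1.97 ± 1.09, 2.26 ± 0.32, 4.28 ± 1.07, 5.46 ± 0.98 and 5.01 ± 0.77 FPKM at days 4, 6, 9, 12 and 20 (SD, n = 4 each), 1.57, 1.95, 1.93 and 0.97 FPKM in RA EBs and 0.57, 0.57, 0.28 and 0.00 FPKM in NPCs. Its levels at day 12 and day 20 overlapped those of ESCs. Cox6a2 was counted in whole reads: 14, 13, 19 and 17 in ESCs, 3 over the 4 libraries of day 4, 1 over those of day 6, 9 over those of day 9, 6, 12, 34 and 0 at day 12, 14, 22, 59 and 25 at day 20, 0 in all 4 RA EB libraries and 1 over the 4 NPC libraries. On these counts RA EBs were at least 21.1-fold lower than ESCs, with the RA EBs set at a floor of 3 counts over the group, and the ratio of NPCs to day 20 EBs was 0.00810 (95% exact interval 0.000203 to 0.0460, counting error only).

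**Figure D1:**
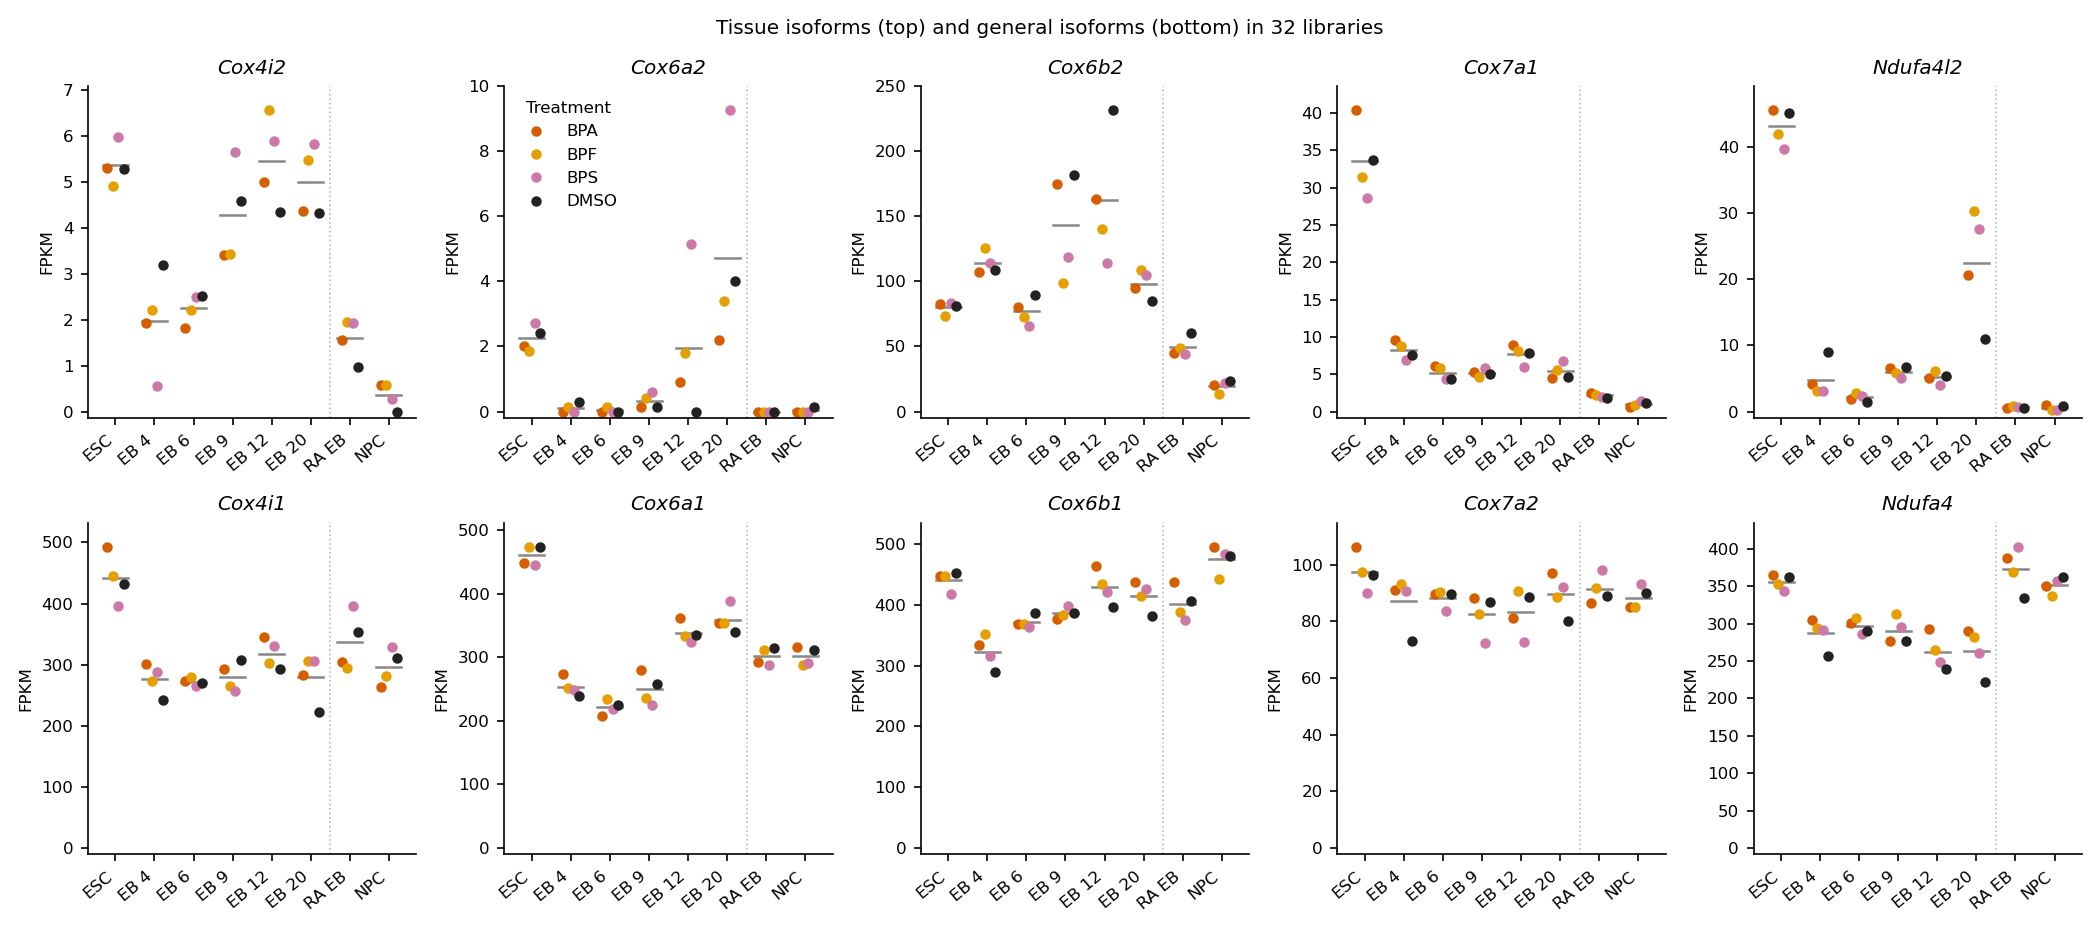
FPKM (y axis, from 0) of the 5 tissue isoforms (top row) and their general partners (bottom row) at the 8 stages, with 1 point per library coloured by treatment and a grey line at the stage mean. Ndufa4l2 and Cox7a1 are highest in the 4 ESC libraries, Cox6b2 is highest at day 12, and the general partners are never below 72.36 FPKM.

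The general partners moved far less. Over the 8 stages the highest stage mean was 1.43 times the lowest for Ndufa4, 1.62 times for Cox4i1, 2.08 times for Cox6a1, 1.47 times for Cox6b1 and 1.18 times for Cox7a2, against 72.8 times for Ndufa4l2, 15.4 times for Cox4i2, 8.22 times for Cox6b2 and 34.7 times for Cox7a1. The share of each tissue isoform in the summed FPKM of its pair was also followed over the stages. Cox7a1 made up 25.5% of the Cox7a pair in ESCs, 8.67% at day 4, 5.47% at day 6, 6.01% at day 9, 8.46% at day 12, 5.67% at day 20, 2.33% in RA EBs and 1.07% in NPCs. For Cox6b2 the shares were 15.4%, 26.1%, 17.1%, 26.8%, 27.1% and 19.1% in ESCs and EBs of days 4, 6, 9, 12 and 20, 10.99% in RA EBs and 3.96% in NPCs. Ndufa4l2 held 10.8% of its pair in ESCs, 0.716% at day 6, 7.66% at day 20 and 0.167% in NPCs. Cox4i2 and Cox6a2 never exceeded a stage mean of 1.76% and 1.27%.

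Each log2 ratio of tissue to general isoform, log2((FPKM + 0.1)/(FPKM + 0.1)), was compared between stages with an exact two-sided permutation test, 10 stage comparisons for each of 5 pairs. In 36 of the 50 comparisons the 4 libraries of one stage did not overlap the 4 of the other, where the FPKM of single genes did not overlap in 60.9% of the same comparisons over all genes tested, and these 36 had the smallest p that 4 against 4 libraries allow, 0.0286, which became 0.0397 after Benjamini-Hochberg adjustment over the 50. Among the 36 is Cox6a2 in RA EBs relative to day 4 (-1.08), which rests on the added 0.1. Cox6a2 was at 0 FPKM in all 4 RA EB libraries and in the BPA and BPS libraries of day 4. Against these day 4 libraries only the level of Cox6a1 set the ratios apart. For Cox7a1 the difference in log2 ratio was -1.84 for day 4 EBs relative to ESCs and -4.89 for NPCs relative to ESCs. For Cox6b2 it was 0.96 for day 4 relative to ESCs, 0.80 for day 9 relative to day 6, -0.63 for day 20 relative to day 12, -1.52 for RA EBs relative to day 4 and -1.59 for NPCs relative to RA EBs. For Ndufa4l2 it was -2.96 for day 4 relative to ESCs, 1.51 for day 9 relative to day 6, 2.003 for day 20 relative to day 12 and -2.88 for RA EBs relative to day 4, whereas NPCs overlapped RA EBs (difference -0.23, adjusted exact permutation p = 0.557). Between day 12 and day 9 the ratios of Cox6b2, Ndufa4l2, Cox4i2 and Cox6a2 overlapped.

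Over the 32 libraries, the genes whose log2 CPM (counts scaled to library size) was most correlated with each tissue isoform differed between isoforms. For Ndufa4l2 they were Gm2a (Pearson r = 0.951), Slc25a42 (0.948), Dnah2 (0.940) and Hsd3b7 (0.935). For Cox7a1 they were Klf2 (0.946), Htatip2 (0.944), Tmem231 (0.943), Apobec2 (0.942) and Kank2 (0.940). Usp2 (0.926), Dcxr (0.917), Otx2 (0.911), Got1l1 (0.911) and Mgmt (0.910) were most like Cox6b2. Ndrg1 (0.904), A2m (0.900), Tesc (0.888), Kdelr3 (0.884) and Tex264 (0.880) were most like Cox6a2, and Tmem161a (0.879), Acot11 (0.872), Trp53i13 (0.862), Litaf (0.857) and Atf7 (0.850) were most like Cox4i2. These libraries share stages, so the values describe a common course over stages.

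The 43 general subunits were expressed in every library, between 21.96 and 543.25 FPKM. The ratio of the highest to the lowest stage mean was 1.61 at the median, ranged from 1.18 for Cox7a2 to 4.33 for Cox8a and was under 2 for 35 of the 43. ESCs had the highest stage mean for 18 of the 43, and day 20 EBs and NPCs had the lowest for 13 each. Summed over its 11 members, complex IV stood at 3522 ± 162 FPKM in ESCs, 2447 ± 101 at day 4, 2328 ± 50 at day 6, 2275 ± 108 at day 9, 2424 ± 91 at day 12, 2318 ± 177 at day 20, 2597 ± 118 in RA EBs and 2441 ± 59 in NPCs (SD, n = 4 each). Complex I lay between 1922 ± 87 (day 9) and 2273 ± 46 FPKM (RA EBs) in the derived stages and at 2288 ± 125 FPKM in ESCs. Complex III summed to 556 ± 23 FPKM in NPCs and 875 ± 12 in ESCs, and complex II to 259 ± 2 FPKM in NPCs and 376 ± 11 in ESCs. The NPC sums of complexes II and III were the lowest of the 8 stages.

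**Figure D2:**
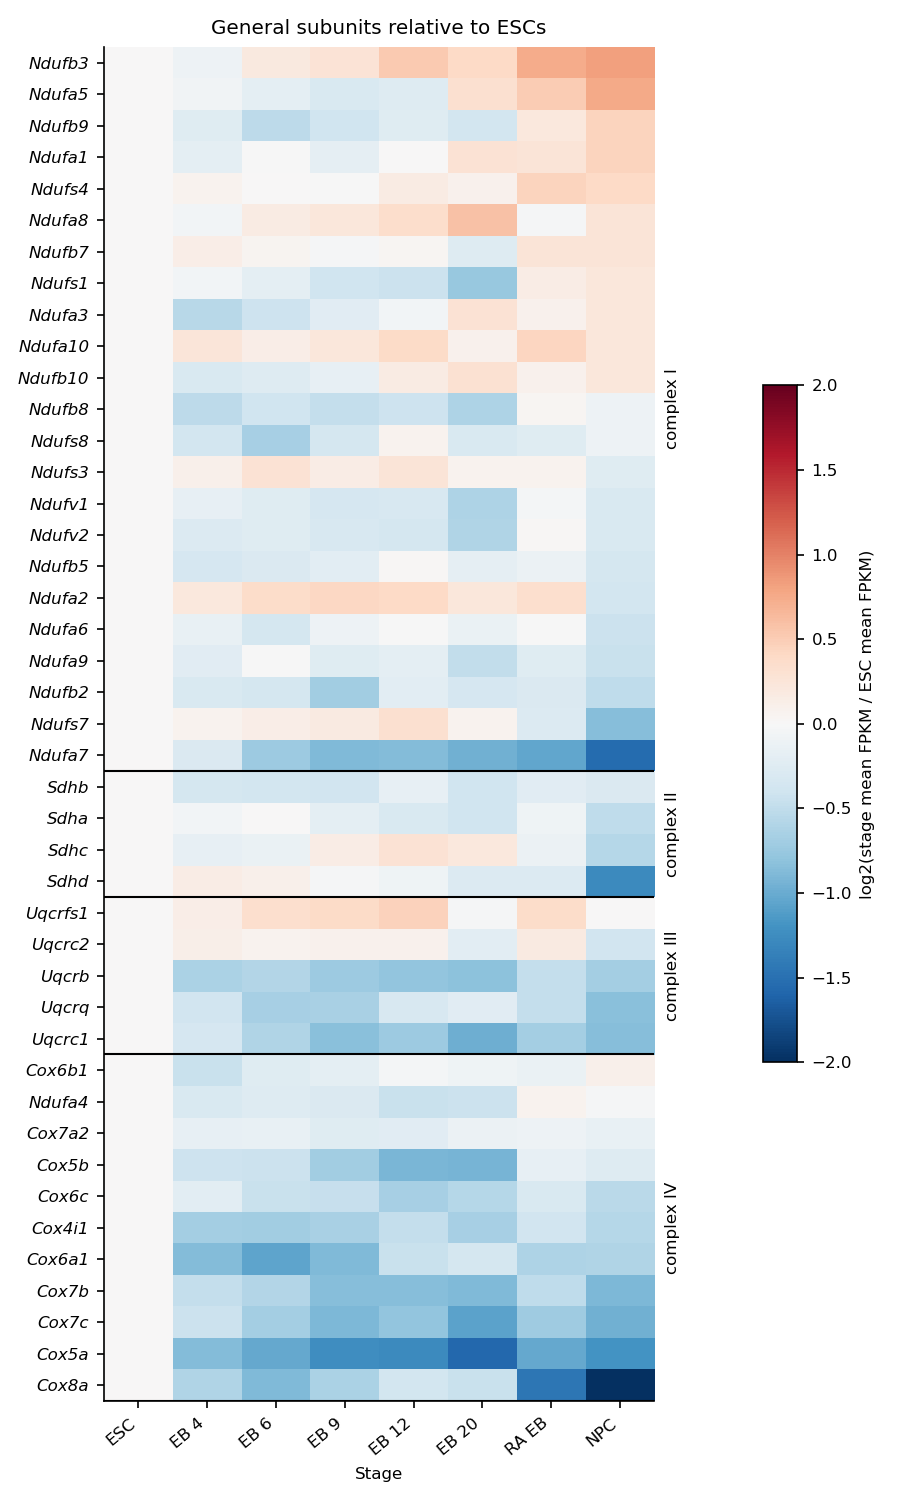
Log2 ratio of the stage mean FPKM to the ESC mean (colour) for the 43 general subunits (rows, grouped by complex) at the 8 stages (columns). Complex IV rows lie mostly below the ESC level, Cox8a and Sdhd are lowest in NPCs, and Ndufb3, Ndufa5 and Ndufb9 of complex I are highest there.

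Single general subunits departed from their complexes. Cox8a, the general form of subunit 8, had 295.02, 261.72, 268.21 and 281.09 FPKM in ESCs, stage means of 151 to 215 FPKM in EBs, 83.57, 58.13, 74.98 and 191.49 FPKM in RA EBs and 72.82, 70.90, 71.59 and 39.97 FPKM in NPCs. Its DMSO library stood apart in both neural stages, above the others in RA EBs and below them in NPCs. Cox5a, a matrix-side subunit of complex IV, had stage means of 301 ± 16 FPKM in ESCs, 165 ± 13 at day 4, 148 ± 14 at day 6, 127 ± 13 at day 9, 125 ± 10 at day 12, 102 ± 5 at day 20, 148 ± 16 in RA EBs and 132 ± 7 in NPCs. Days 9 and 12 overlapped, RA EBs overlapped both day 4 EBs and NPCs, and every NPC library lay below the day 4 libraries. Sdhd, a membrane anchor of complex II, had 57.6 ± 3.0 FPKM in ESCs, 47.5 ± 6.5 at day 20, 47.9 ± 8.5 in RA EBs and 23.8 ± 2.8 in NPCs, where every library was below all others. Ndufa7, an accessory subunit of complex I, had 324 ± 29 FPKM in ESCs, 265 ± 22 at day 4, 197 ± 21 at day 6 and 112 ± 12 in NPCs. In the opposite direction, the complex I accessory subunits Ndufb3, Ndufa5 and Ndufb9 had 78.9 ± 2.5, 115 ± 12 and 208 ± 20 FPKM in NPCs, against 44.9 ± 3.8, 67.9 ± 6.8 and 153 ± 3 FPKM in ESCs. The NPC libraries did not overlap the ESC libraries for any of the 3.

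The step from ESCs to day 4 EBs was one of lower complex IV. Differences between stages were tested on the expected counts with the quasi-likelihood test of edgeR over 15632 genes and adjusted by the Benjamini-Hochberg method over all of them, and a gene is said to rise or fall where adjusted p was under 0.05. Of the 43 general subunits 2 rose and 25 fell in day 4 EBs relative to ESCs (median log2 change -0.23), while 32.4% of all genes tested rose and 32.2% fell. In complex IV 10 of 11 fell, with Cox5a at -0.85 ± 0.08 (SE, adjusted p = 5.6e-10), Cox6a1 at -0.85 ± 0.06 (adjusted p = 2.0e-12), Cox4i1 at -0.68 ± 0.10 (adjusted p = 1.0e-06) and Cox8a at -0.58 ± 0.20 (adjusted p = 0.012). In complex I 11 of 23 fell and 1 rose, which was Ndufa10 at 0.27 ± 0.05 (adjusted p = 1.1e-04). In complex III Uqcrb, a small subunit, fell (-0.62) and Uqcrc2, a core subunit, rose (0.14), a call lost without the BPA library of ESCs (0.12) or of day 4 (0.11). The tissue isoforms moved further. Ndufa4l2 changed by -3.15 ± 0.28, Cox7a1 by -2.01 ± 0.17 and Cox4i2 by -1.42 ± 0.32 (adjusted p = 8.7e-11, 3.2e-11 and 3.4e-04). Cox6a2 fell as well (adjusted p = 5.9e-05), and its ratio of 3 to 63 counts, scaled to library size, was 0.0496 (95% exact interval 0.00996 to 0.152, counting error only). Cox6b2 rose by 0.52 ± 0.16 (adjusted p = 0.0046).

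Between days 4 and 12 the general subunits moved little. At day 6 relative to day 4, 3 rose and 13 fell (27.9% and 25.6% of all genes), with a median of -0.07, and 6 rose and 10 fell when log2(FPKM + 1) was tested with limma, or 8 and 5 with the length offset described further on (25.2% and 28.6% of all genes). Here and below, stage counts under limma, on the FPKM scale or with other size factors have no share of all genes beside them. Such counts describe the dependence on the setting only. The 3 rises, of Cox6b1, Ndufa9 and Ndufb3, each lost the call without the day 4 DMSO library (0.11, 0.12 and 0.21) and, except for Ndufa9, without that of day 6 (0.12 and 0.21). Ndufa7 (-0.47 ± 0.09) and Ndufs8 (-0.34 ± 0.09), the second an iron-sulfur subunit of complex I, fell. At day 9 relative to day 6, 2 rose and 13 fell (27.0% and 24.1% of all genes), with a median of -0.08 and 4 and 8 under limma on log2(FPKM + 1). The 2 rises, of Sdhc and Ndufs8, lost the call without the day 9 DMSO library (0.19 and 0.16) and without several other single libraries. The strongest falls were those of Ndufb2 (-0.40 ± 0.11), Cox7b (-0.34 ± 0.06) and Cox5b (-0.33 ± 0.08). At day 12 relative to day 9, 6 rose and 4 fell (20.3% and 20.8% of all genes), against 10 and 4 under limma or with relative log expression size factors, with Ndufb2 at 0.45 ± 0.11, Ndufs8 at 0.38 ± 0.09 and Ndufb10 at 0.30 ± 0.06. Among the tissue isoforms, Cox7a1 and Cox6b2 fell at day 6 (-0.72 ± 0.19 and -0.63 ± 0.16, adjusted p = 0.0020 and 0.0013). Ndufa4l2 fell at day 6 (-1.21 ± 0.33) and no longer passed when the day 4 DMSO library, its highest of that stage, was left out (-0.69). At day 9 Ndufa4l2 rose by 1.42 ± 0.32 (adjusted p = 6.3e-04) and Cox6b2 by 0.80 ± 0.16 (adjusted p = 1.1e-04). Cox4i2 rose by 0.85 ± 0.32 at day 9 (adjusted p = 0.027), a call lost without BPS at day 9 (0.69), DMSO at day 9 (0.77), BPA at day 6 (0.78) or BPF at day 6 (0.81). At day 12 Cox6a2 and Cox7a1 rose relative to day 9 (adjusted p = 0.0070 and 0.030); Cox6a2 stood at 2.35 ± 0.68, and at 1.65 and not called without BPS at day 12, and Cox7a1 at 0.52 ± 0.19, a call lost when any of 6 of the 8 libraries was left out (0.43 to 0.52).

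Day 20 EBs had lower levels of most general subunits than day 12 EBs. Of the 43, 1 rose and 28 fell (33.8% and 34.4% of all genes), with a median of -0.24. On the FPKM scale, which lay 0.11 above the normalized count scale in this comparison, 4 rose and 18 fell. The falls comprised 16 of 23 complex I members, 4 of 4 of complex II, 3 of 5 of complex III and 5 of 11 of complex IV. Uqcrfs1, the Rieske iron-sulfur protein of complex III, changed by -0.60 ± 0.08 (adjusted p = 2.6e-07), Ndufs8 by -0.48 ± 0.09 (adjusted p = 2.2e-05) and Ndufs1, the largest iron-sulfur subunit of complex I, by -0.44 ± 0.07 (adjusted p = 1.2e-06). Ndufa5 rose by 0.46 ± 0.10 (adjusted p = 2.8e-04). Ndufa4l2 rose by 2.01 ± 0.27 (adjusted p = 2.7e-07), with 20.71, 30.30, 27.58 and 11.04 FPKM at day 20 above 5.05, 6.10, 4.08 and 5.41 FPKM at day 12 in every library. Cox6b2 (-0.81 ± 0.15) and Cox7a1 (-0.62 ± 0.19) fell (adjusted p = 4.1e-05 and 0.0059), and Cox4i2 did not pass (-0.23 ± 0.29). Cox6a2 had 120 counts over the day 20 libraries and 52 over those of day 12 (adjusted p = 0.020 by edgeR), a call lost without DMSO at day 12 (log2 change 0.76) or BPS at day 20 (1.10).

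Retinoic acid EBs differed from day 4 EBs in both directions. Of the general subunits 12 rose and 9 fell (37.6% and 34.8% of all genes), with a median of 0.02, and on the FPKM scale, 0.10 higher here, 20 rose and 6 fell. The rises included Ndufb3 (0.73 ± 0.09), Ndufa3 (0.53 ± 0.10) and Ndufb8 (0.46 ± 0.07), all accessory subunits of complex I, where 9 of 23 rose and 2 fell. Cox8a (-0.98 ± 0.21), Ndufa7 (-0.85 ± 0.09) and Sdhd (-0.52 ± 0.09) fell. Without the DMSO library of the RA EBs the 48 members divided into 12 higher and 14 lower, against 12 and 12 with it, and Cox8a was at -1.45 ± 0.15. The tissue isoforms Ndufa4l2 (-2.87 ± 0.40), Cox7a1 (-2.01 ± 0.21) and Cox6b2 (-1.36 ± 0.16) fell, with adjusted p of 3.8e-07, 3.0e-09 and 2.1e-08.

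In NPCs relative to RA EBs 7 general subunits rose and 16 fell (36.4% and 36.4% of all genes), with a median of -0.13, against 5 and 22 on the FPKM scale and 10 and 14 with relative log expression size factors. Of all 48 members 5 rose and 20 fell without the DMSO library of the RA EBs, and 4 and 18 without that of the NPCs, against 7 and 19 with both. In complex IV 1 of 11 rose and 3 fell, and in complex II 3 of 4 fell. Ndufa8 (0.36 ± 0.08), Ndufa5 (0.34 ± 0.10), Cox6b1 (0.32 ± 0.05) and Ndufb9 (0.31 ± 0.09) rose. Sdhd (-0.93 ± 0.10) and Ndufa2 (-0.62 ± 0.11) fell. Cox8a was called lower at -0.55 ± 0.22 (adjusted p = 0.025), but stood at -0.14 without the DMSO library of the RA EBs and at -0.36 without that of the NPCs and passed in neither. Ndufb9 also lost its call without either library (0.15 and 0.20). Cox4i2 (-2.05 ± 0.49) and Cox6b2 (-1.25 ± 0.18) fell (adjusted p = 5.2e-04 and 7.3e-07), and so did Cox7a1 (-1.06 ± 0.30, adjusted p = 0.019), at -0.84 and not called without the BPA library of the NPCs.

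Set against ESCs, the 2 end points diverged. In day 20 EBs 1 general subunit rose and 33 fell (44.9% and 41.3% of all genes), with a median of -0.53, and all 11 of complex IV and all 5 of complex III were among the falls. On the FPKM scale, 0.24 higher in this comparison, 8 rose and 25 fell, and with the length offset 7 and 25 (41.8% and 45.0% of all genes). Cox5a (-1.81 ± 0.08), Cox7c (-1.31 ± 0.09) and Uqcrc1 (-1.21 ± 0.06), a core subunit of complex III, had the lowest log2 changes and Ndufa8 rose (0.35 ± 0.08). Cox7a1 (-2.86 ± 0.18) and Ndufa4l2 (-1.18 ± 0.24) fell as well, and Cox6b2 did not pass (0.04). In NPCs 10 general subunits rose and 26 fell (43.7% and 41.2% of all genes), with a median of -0.32. All 10 rises were in complex I, led by Ndufb3 (0.80 ± 0.09), Ndufa5 (0.75 ± 0.10) and Ndufb9 (0.43 ± 0.09). The deepest falls were those of Cox8a (-2.12 ± 0.22), Ndufa7 (-1.55 ± 0.10) and Sdhd (-1.29 ± 0.10). Ndufa4l2 (-6.17 ± 0.37), Cox7a1 (-5.08 ± 0.23), Cox4i2 (-3.87 ± 0.42) and Cox6b2 (-2.09 ± 0.18) were far lower in NPCs than in ESCs, with adjusted p between 1.5e-11 and 6.3e-18 for all but Cox4i2 (2.3e-09).

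Between NPCs and day 20 EBs the balance of the general subunits depended on the scale. On normalized counts 28 rose and 7 fell (37.0% and 38.8% of all genes), with a median of 0.27, whereas on the FPKM scale, which lay 0.23 lower in this comparison, 16 rose and 14 fell with a median of 0.04. The shift of scale applies to all genes, and no share of all genes stands beside the FPKM-scale counts. They therefore do not show how the members moved relative to other genes. Summed FPKM in NPCs and day 20 EBs was 2156 and 1992 for complex I, 259 and 329 for complex II, 556 and 599 for complex III and 2441 and 2318 for complex IV. Ndufs1 was higher on both scales, at 52.10, 56.08, 55.72 and 52.79 FPKM in NPCs against 29.03, 26.33, 26.00 and 27.61 FPKM in day 20 EBs, a log2 change of 1.21 ± 0.06 (adjusted p = 3.5e-15). Ndufb9 (1.04 ± 0.09) and Cox5b (0.90 ± 0.09) also rose. Cox8a (-1.44 ± 0.21), Sdhd (-0.77 ± 0.10) and Ndufs7 (-0.70 ± 0.10) fell. All 5 tissue isoforms fell, with Ndufa4l2 at -4.99 ± 0.38, Cox4i2 at -3.52 ± 0.43, Cox7a1 at -2.22 ± 0.27 and Cox6b2 at -2.13 ± 0.18.

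Most of these transcripts are short, and short transcripts drifted as a class between stages. The members had a median deposited length of 717 bases, against 2831 bases over all genes tested, and 26 of the 48 were under 750 bases, as were 532 of all genes. The median log2 change of the other genes under 750 bases was -0.18 at day 20 relative to day 12, -0.44 in NPCs relative to RA EBs, -0.45 at day 20 relative to ESCs and -0.67 in NPCs relative to ESCs. Over the same comparisons genes over 3000 bases were at 0.06, 0.18, 0.33 and 0.37. For day 4 relative to ESCs the medians were -0.07 and 0.02, so the drift was small at that step. The 77 cytosolic ribosomal protein genes, a set of short transcripts that was added after values were seen, fell further than their length class, with medians of -0.93 at day 20 relative to day 12 and -1.08 in NPCs relative to RA EBs.

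**Figure D3:**
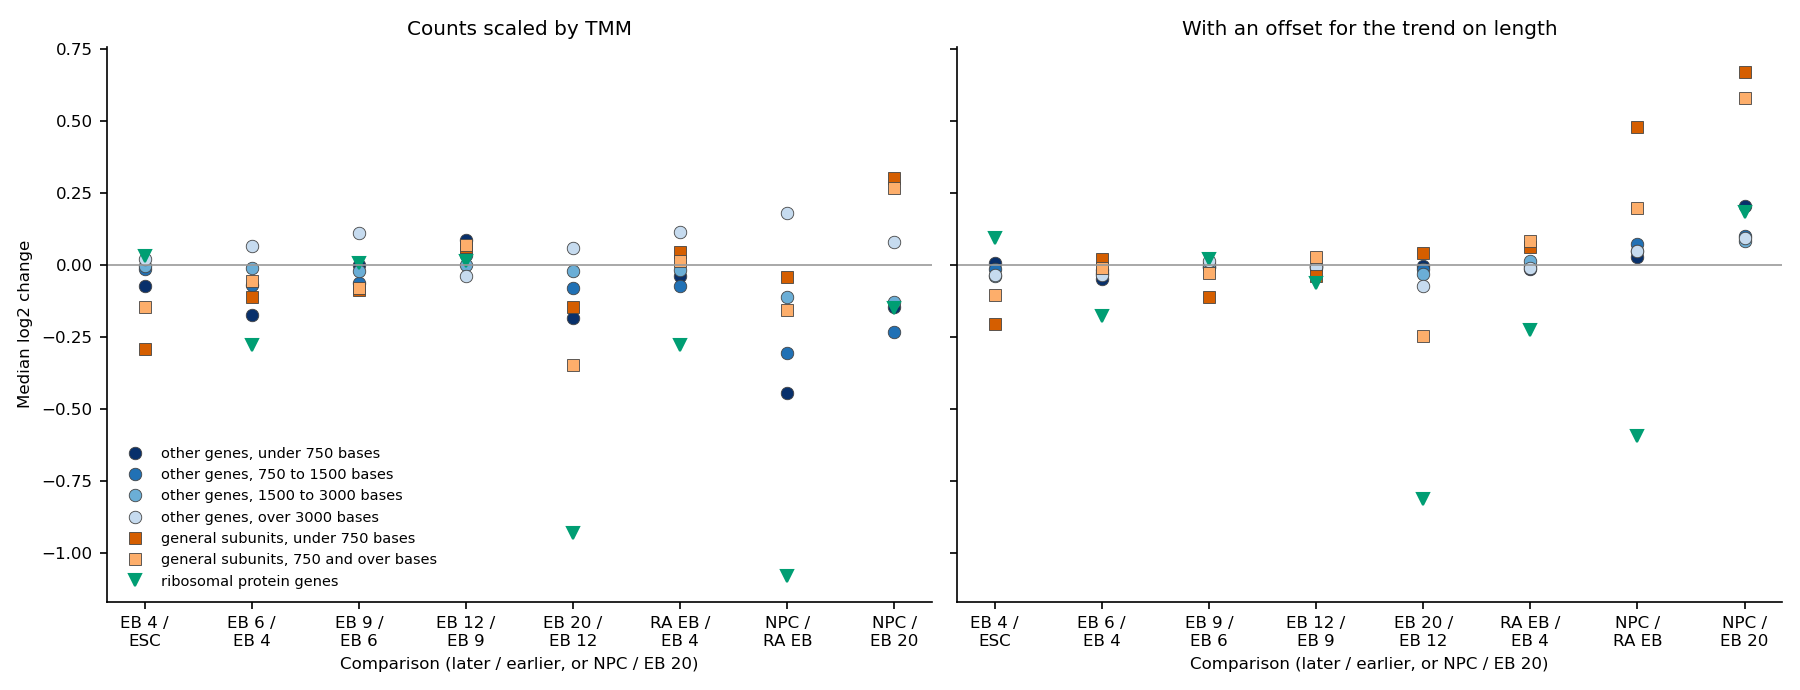
Median log2 change (y axis) of other genes in 4 classes of transcript length, of the general subunits under and over 750 bases and of ribosomal protein genes, for 8 stage comparisons (x axis), without (left) and with (right) an offset for the trend on length. Short genes lie below 0 in NPCs relative to RA EBs, at -0.44 before the offset, and the general subunits of that length lie at -0.04.

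Each general subunit was set against the median of other genes of its own length class. At day 4 relative to ESCs 11 of the 43 lay above and 32 below that median, by -0.20 at the median. At day 20 relative to day 12 the numbers were 13 above and 30 below (-0.12). In NPCs relative to RA EBs 33 lay above and 10 below (0.26), and in NPCs relative to day 20 EBs 36 lay above and 7 below (0.49). At day 6 relative to day 4 (25 above and 18 below, 0.01) and at day 12 relative to day 9 (22 and 21, 0.01) they lay close to the class median. The numbers were 14 and 29 (-0.08) at day 9 relative to day 6, 27 and 16 (0.08) in RA EBs relative to day 4, 13 and 30 (-0.19) at day 20 relative to ESCs and 26 and 17 (0.12) in NPCs relative to ESCs. With a length trend fitted in each library and carried as an offset, 7 general subunits rose and 18 fell at day 20 relative to day 12 (31.7% and 37.0% of all genes). Under the same offset 30 rose and 3 fell in NPCs relative to RA EBs (38.9% and 33.3%), with a median of 0.38 in place of -0.13, so the direction of the group in this comparison turned with the treatment of length. In NPCs relative to ESCs it turned too, with 22 higher and 10 lower (43.8% and 41.5%). For NPCs relative to day 20 EBs the offset gave 36 and 4 (42.9% and 33.8%).

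**Figure D4:**
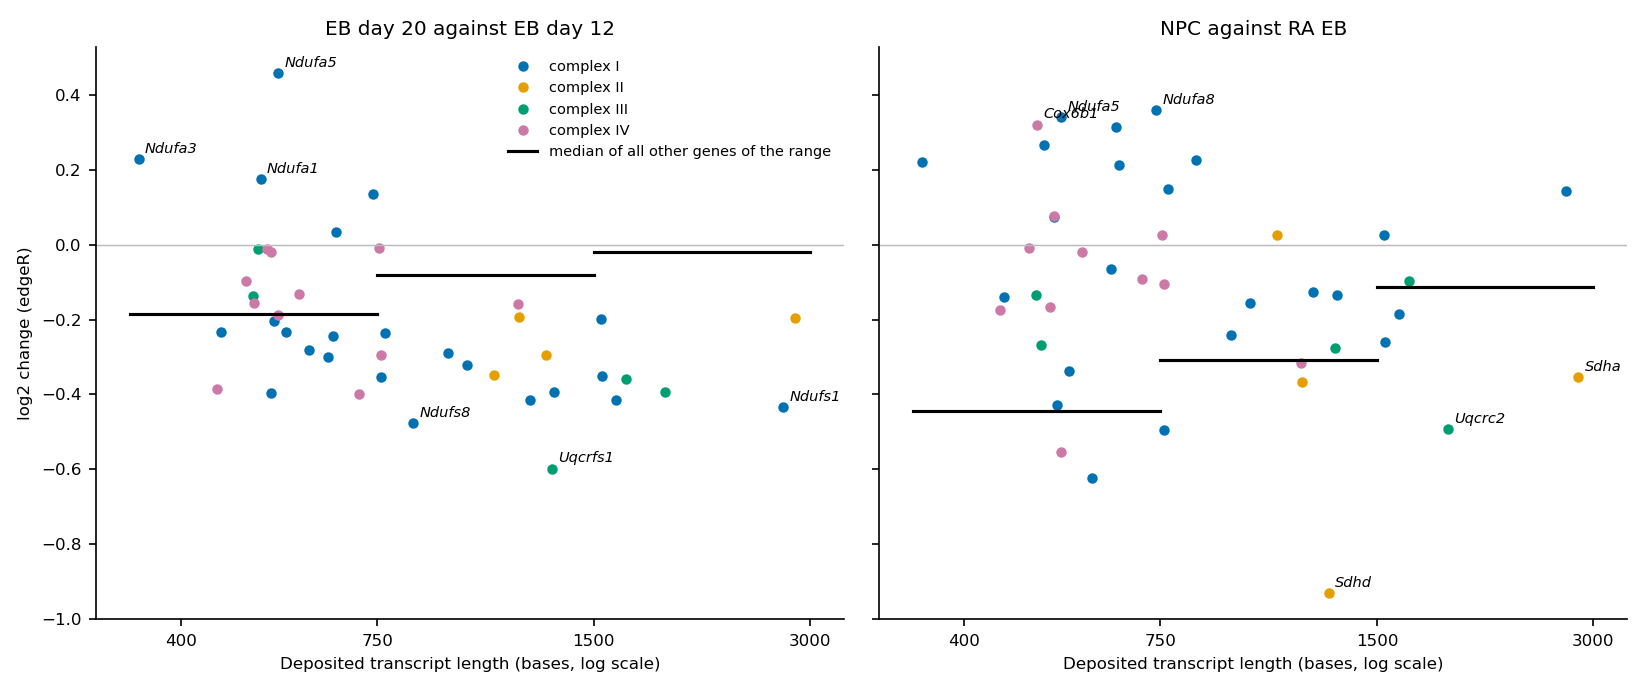
Log2 change of the 43 general subunits (y axis) against deposited transcript length in bases (x axis, log scale), coloured by complex, for day 20 against day 12 EBs (left) and NPCs against RA EBs (right), with black lines at the median of all other genes in each length range. On the left 13 of the 43 lie above their line, and on the right 33 do, with Sdhd lowest at -0.93.

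The tissue isoforms were also followed with the length offset. With it Ndufa4l2 was at -3.13, Cox7a1 at -1.86, Cox4i2 at -1.36 and Cox6b2 at 0.61 for day 4 relative to ESCs, and at -5.67, -4.35, -3.29 and -1.45 for NPCs relative to ESCs, all with adjusted p under 0.05. Ndufa4l2 kept 2.08 at day 20 relative to day 12. Cox6b2 was at -0.71 in NPCs relative to RA EBs (adjusted p = 4.0e-04), against -1.25 without the offset. Cox7a1, at 393 bases the shortest tissue isoform, did not pass with the offset in NPCs relative to RA EBs (-0.47, adjusted p = 0.33, against -1.06 without it) or at day 20 relative to day 12 (-0.37, adjusted p = 0.10, against -0.62). Among general subunits, Sdhd (1287 bases) kept its fall in NPCs relative to RA EBs (-0.56), and Cox8a was at 0.00 and Ndufa2 at -0.10.

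Other genes of the pathway were counted from lists. The 18 further subunits of complexes I to III and cytochrome c fell with the members at day 20 relative to ESCs, with 2 higher and 14 lower (median -0.52), among them Ndufb4 (-1.18 ± 0.09), Ndufab1 (-1.06 ± 0.09) and Cyc1 (-1.05 ± 0.10), the cytochrome c1 of complex III. In NPCs relative to day 20 EBs 9 rose and 5 fell, with cytochrome c itself (Cycs) at 1.13 ± 0.07. Of 16 ATP synthase subunits 0 rose and 12 fell at day 20 relative to day 12, and 11 rose and 4 fell in NPCs relative to day 20 EBs, with Atp5d, a subunit of the central stalk, at -1.37 ± 0.15 among the falls. Of 38 assembly factors tested 5 rose and 15 fell at day 20 relative to day 12 and 19 rose and 6 fell in NPCs relative to day 20 EBs. Cox18, which inserts a core subunit of complex IV into the membrane, was at -2.78 ± 0.10 and Cox19, a copper-related assembly factor, at 1.93 ± 0.09 in NPCs relative to ESCs. Of 17 regulators of mitochondrial biogenesis 2 rose and 14 fell at day 20 relative to ESCs, with the orphan receptor Esrrb at -5.61 ± 0.14, and Tfam, the mitochondrial transcription factor, was at -0.85 ± 0.07 at day 20 relative to day 12.

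Hypoxia targets and glycolytic genes were counted beside Ndufa4l2. Of 20 hypoxia targets 4 rose and 13 fell at day 4 relative to ESCs, with Vegfa at -2.98 ± 0.12, Ndrg1 at -2.35 ± 0.20 and Car9 at -2.001 ± 0.524. At day 20 relative to day 12 11 rose and 5 fell, with Ndrg1 at 2.001 ± 0.187, the collagen prolyl hydroxylase P4ha2 at 1.61 ± 0.20 and the oxygen sensor Egln3 at 1.42 ± 0.14. In NPCs relative to day 20 EBs 1 rose and 18 fell. At steps where Ndufa4l2 fell, 6 hypoxia targets rose and 5 fell at day 6 relative to day 4, 6 rose and 6 fell in RA EBs relative to day 4, and 2 rose and 14 fell in NPCs relative to ESCs. At day 9 relative to day 6 11 rose and 2 fell, at day 12 relative to day 9 4 rose and 3 fell, in NPCs relative to RA EBs 2 rose and 13 fell, and at day 20 relative to ESCs, where Ndufa4l2 fell, 10 rose and 6 fell. Of 22 glycolysis and lactate genes 5 rose and 17 fell in NPCs relative to RA EBs, with the glucose transporter Slc2a1 at -3.83 ± 0.14, and 2 rose and 20 fell in NPCs relative to ESCs, with Hk2 at -4.81 ± 0.13. Of the ADP/ATP carriers, Slc25a5 was at -2.19 ± 0.08 at day 20 relative to ESCs. Germ cell markers, relevant to the testis isoform, were counted beside Cox6b2: 0 of 10 tested rose and 8 fell at day 6 relative to day 4, and 3 rose and 2 fell at day 9 relative to day 6. At day 4 relative to ESCs, where Cox6b2 rose, 5 rose and 5 fell (median -0.23), and at day 20 relative to day 12, where Cox6b2 fell, 2 rose and 1 fell (median 0.44). At day 12 relative to day 9 0 rose and 2 fell, in RA EBs relative to day 4 1 rose and 8 fell, and 0 rose and 8 fell in NPCs relative to RA EBs.

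Averaged over the 8 stages, no member passed the test for any of the 3 bisphenols. BPA, which joins its phenol rings through an isopropylidene bridge, BPF, which has a methylene bridge, and BPS, which has a sulfonyl bridge, were each compared with DMSO and with one another at the same dose, 6 comparisons in all. By edgeR 0 of 48 members passed in each, against 0.166% of all genes for BPA relative to DMSO, 0.992% for BPF relative to DMSO, 1.15% for BPS relative to DMSO, 0.0% for BPA relative to BPF, 0.0064% for BPA relative to BPS and 0.0% for BPF relative to BPS. DESeq2 and limma also called 0 in all 6, and at an unadjusted p under 0.05 there were 3, 4, 5, 0, 3 and 1 members in that order, or 6.25%, 8.33%, 10.4%, 0.0%, 6.25% and 2.08% of the 48, beside 10.3%, 14.1%, 16.5%, 2.15%, 6.88% and 1.70% of all genes. The largest change of a general subunit was 0.18 (log2) for BPA, 0.18 for BPF and 0.21 for BPS relative to DMSO and 0.10, 0.18 and 0.10 between bisphenols. Their 95% intervals reached from -0.43 to 0.33 for BPA, from -0.48 to 0.29 for BPF and from -0.43 to 0.35 for BPS relative to DMSO. Between compounds that differ in the bridge they reached from -0.25 to 0.35 for BPA relative to BPF, from -0.31 to 0.34 for BPA relative to BPS and from -0.36 to 0.25 for BPF relative to BPS. The intervals were wider for the weakly counted Cox6a2, at 1.26 for BPS relative to DMSO (0.26 to 2.26, adjusted p = 0.18) and -1.65 for BPA relative to BPS (-2.68 to -0.63, adjusted p = 0.52). Cox6b2 was at -0.31 for BPF and -0.29 for BPS relative to DMSO (adjusted p = 0.19 for both).

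Within a stage the 3 bisphenol libraries could be set only against 1 DMSO library, so each call there also rests on that library. By edgeR 0 of 48 members passed in ESCs (0.0% of all genes), 1 at day 4 (0.563%), 0 at day 6 (2.55%), 0 at day 9 (7.49%), 3 at day 12 (18.9%), 2 at day 20 (19.6%), 7 in RA EBs (2.34%) and 1 in NPCs (2.25%). DESeq2 also called 0 in ESCs and at days 6 and 9, where 0, 3 and 3 members (0.0%, 6.25% and 6.25%) had an unadjusted p under 0.05, beside 1.64%, 12.3% and 19.2% of all genes. The share of members at this unadjusted threshold was above that of all genes at day 4 (22.9% beside 8.60%) and in RA EBs (43.75% beside 16.5%). In NPCs it lay close to that of all genes (14.6% beside 12.6%). It was below that of all genes at day 12 (6.25% beside 30.8%) and day 20 (14.6% beside 32.6%). At day 4 the call was Ndufa4l2, at 4.10, 3.12 and 3.10 FPKM in BPA, BPF and BPS cultures and 9.02 FPKM in DMSO cultures (log2 change -1.40 ± 0.27, adjusted p = 0.0088), and it did not pass with the length offset, at a change of -1.47. At day 20 Ndufa4l2 was higher with bisphenols, at 20.71, 30.30 and 27.58 FPKM against 11.04 FPKM with DMSO (1.19 ± 0.24, adjusted p = 9.5e-04), and so was Sdhd, at 51.62, 49.43 and 51.23 FPKM against 37.80 FPKM with DMSO (0.37 ± 0.12, adjusted p = 0.025), which did not pass with the length offset (0.28).

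At day 12 Cox6b2 was lower with bisphenols, at 163.15, 140.15 and 113.79 FPKM against 231.52 FPKM with DMSO (-0.76 ± 0.19, adjusted p = 0.0050). At day 9 its BPA value of 174.78 FPKM lay close to the DMSO value of 182.07 FPKM and the comparison did not pass. Cox6a2 was called at day 12 (adjusted p = 0.025), with 6, 12 and 34 counts in BPA, BPF and BPS cultures and 0 in DMSO cultures, at least 5.76-fold higher when the DMSO library is set at a floor of 3 counts, and the call was lost without the BPS library. Uqcrb, at 198.55, 222.93 and 198.09 FPKM against 168.15 FPKM with DMSO (0.25 ± 0.09, adjusted p = 0.045), lost its call without BPF (0.20) and with the length offset (0.25). Markers of other cells moved at the same stages. At day 12 the 22 striated muscle markers summed to 102, 283 and 624 FPKM in BPA, BPF and BPS cultures and 25.0 FPKM in DMSO cultures, with 15 of 18 tested called higher, and 2 or 3 of them at 0 in each bisphenol library against 4, Ttn, Pln, Ckm and Ckmt2, in the DMSO library. The 13 mural cell markers summed to 480, 615 and 383 FPKM against 66.3 FPKM with DMSO. Endothelial markers at day 12 also lay higher, at 28.1, 36.4 and 53.3 FPKM against 14.3 FPKM with DMSO. Neuron markers lay lower, at 937, 769 and 768 FPKM against 1059 FPKM with DMSO. Germ cell markers summed to 9.24, 8.89 and 8.94 FPKM against 12.33 FPKM with DMSO, but that list had no called member. Its largest change was that of Sycp1 (-0.83 ± 0.40, SE), and Prdm1 went the other way (0.34 ± 0.50). At day 20 muscle markers summed to 86.4, 204 and 325 FPKM against 63.3 FPKM with DMSO and mural cell markers to 471, 642 and 670 FPKM against 107 FPKM with DMSO. The part of any of these marker sets in the differences of Cox6a2, Cox6b2 and Ndufa4l2 was not tested.

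Cox8a had the largest called log2 difference of a general subunit within a stage. In RA EBs it had 83.57, 58.13 and 74.98 FPKM with BPA, BPF and BPS and 191.49 FPKM with DMSO (-1.36 ± 0.13, adjusted p = 2.1e-06). In NPCs the order turned round, with 72.82, 70.90 and 71.59 FPKM against 39.97 FPKM with DMSO (0.85 ± 0.17, adjusted p = 0.0042). In RA EBs the DMSO library was also above the others for Uqcrq (131.97, 116.29 and 143.13 FPKM against 201.78 FPKM with DMSO, -0.58 ± 0.13) and Sdhc (84.90, 76.52 and 100.81 FPKM against 118.78 FPKM with DMSO, -0.39 ± 0.10). It was below them for Ndufb9 (202.04, 183.82 and 183.97 FPKM against 134.29 FPKM with DMSO, 0.55 ± 0.09) and Uqcrb (271.94, 258.84 and 252.78 FPKM against 198.46 FPKM with DMSO, 0.45 ± 0.09). Ndufb3 (0.50 ± 0.11) lost its call without BPS (0.46), and Sdhd (-0.40 ± 0.11) lost it without BPA (-0.38) or BPS (-0.37) and with the length offset (-0.34). No list of cell markers had a called member in RA EBs among the muscle, mural, endothelial, neuron, germ cell, pluripotent and astrocyte markers. In NPCs the 13 mural cell markers summed to 79.7, 59.2 and 105 FPKM with BPA, BPF and BPS against 188 FPKM with DMSO. Of 11 mural cell markers tested 4 were called lower with bisphenols, as was 1 of 7 astrocyte markers (Gja1, -0.52 ± 0.11, adjusted p = 0.0060), and Cspg4 and Higd1b were at 0 in the BPA and BPF libraries. Their part in the Cox8a difference was not tested.

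**Figure D5:**
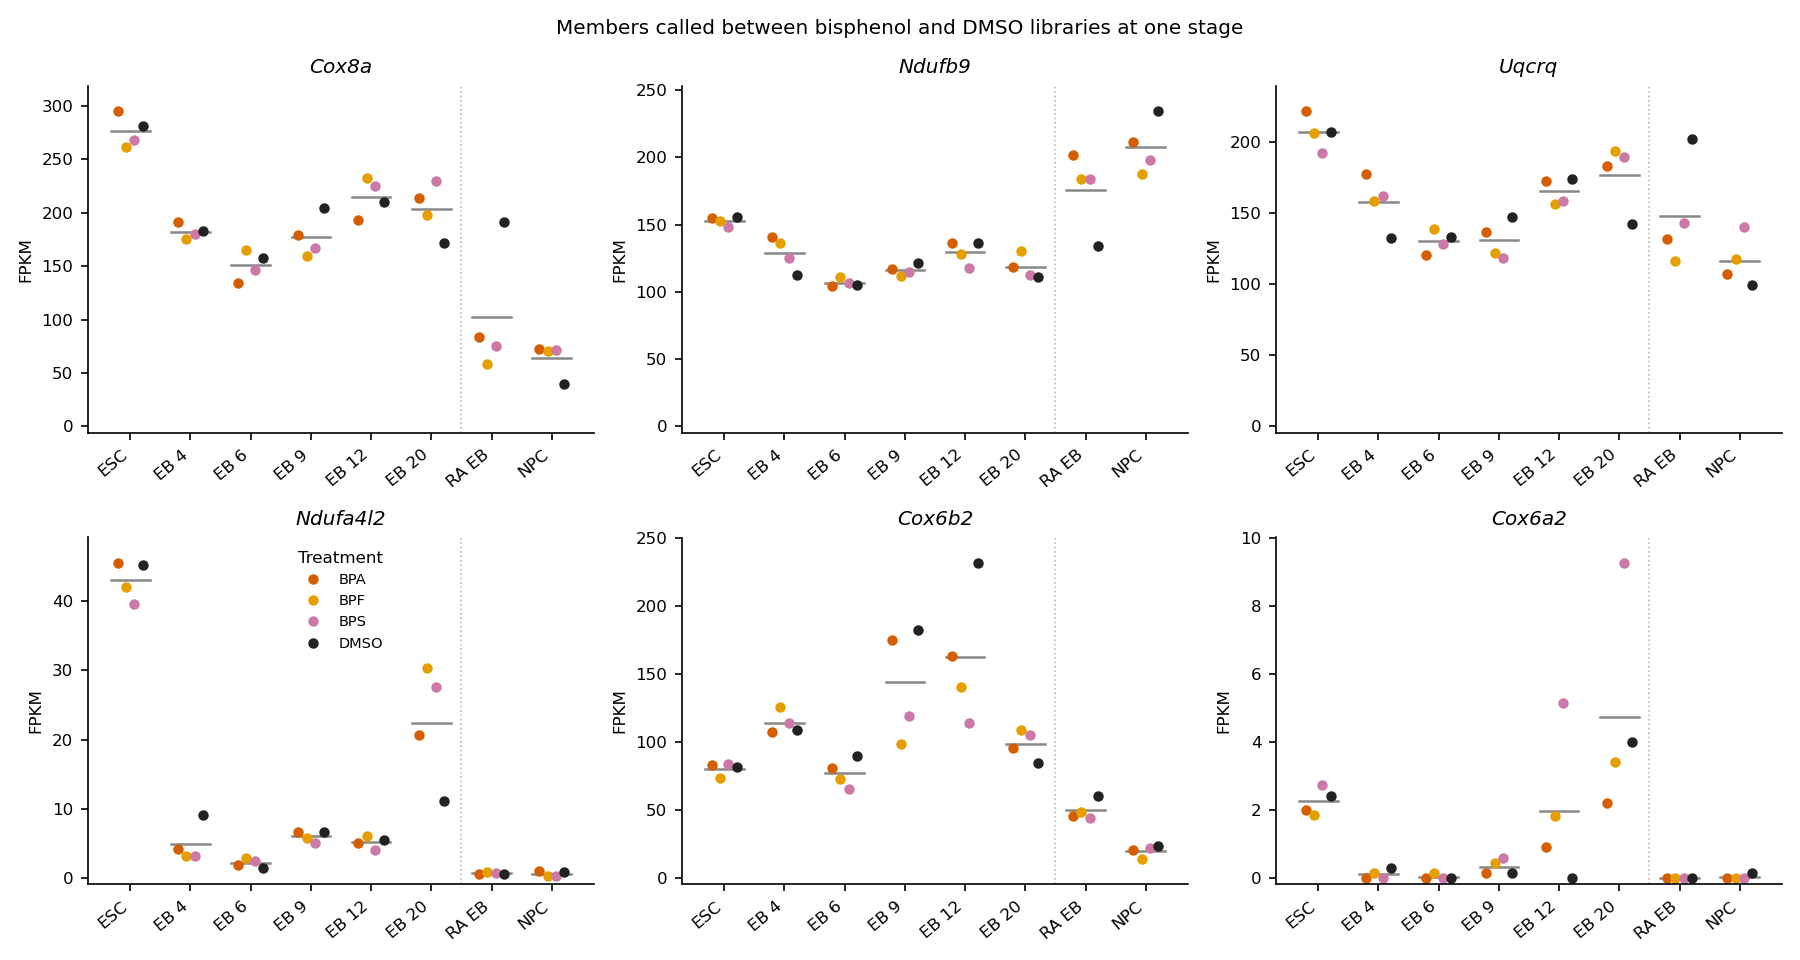
FPKM (y axis, from 0) at the 8 stages (x axis) of 6 members called between bisphenol and DMSO libraries within at least 1 stage, with 1 point per library coloured by treatment and a grey line at the stage mean. For Cox8a the DMSO library is the highest of the 4 RA EB libraries, at 191 FPKM, and the lowest of the 4 NPC libraries, at 39.97 FPKM.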

How the data were processed

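RNA-seq values of 32 libraries were used. Per the submitters' processing notes, Bowtie2, HISAT, RSEM and the mouse build mm10 were used, with no versions or roles, and the counting strand is not given in the sources used here. The deposited expected counts, estimated reads per gene, were rounded to whole numbers before testing; 78.8% to 80.6% were whole as deposited, and totals were 9574833 to 11070149 per library. The deposited FPKM values follow the expected count divided by the deposited length less 36.5 bases and by the library's total, and genes not listed in a library were set to 0. Gene names were matched to RefSeq GRCm38.p6 for 20551 of 20612 genes.

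Genes that reached 1 CPM in 4 or more libraries (15632) were tested with edgeR 4.0.16 (quasi-likelihood, TMM factors 0.923 to 1.143) in R 4.3.3, with stage and treatment as terms (21 residual degrees of freedom), or, for bisphenols within a stage, with stage and bisphenol or DMSO combined (16 residual degrees of freedom). A prior count of 1 was used for the log2 CPM values only, and the log2 changes were fitted at the default setting of edgeR. Adjusted p-values are Benjamini-Hochberg values over all genes tested. The SE of a log2 change was its absolute value divided by the square root of the F statistic of the test. The 95% intervals of log2 changes were built on this SE. For weakly counted genes these need not match the p-value and can look more precise than it. Alternatives were DESeq2 1.42.0, limma 3.58.1 on log2(FPKM + 1) and log2(FPKM + 0.1), other size factors, other filters, a length-trend offset, and leaving out libraries. The fits were tested on simulated data. Isoform ratios were compared with scipy 1.17.1. Intervals and floors of counts cover counting error only. The members and gene lists were chosen with earlier results of these data known. In each comparison the 5 tissue isoforms, their partners and the 3 called members with the highest and lowest log2 changes could be named, and up to 3 called genes per other list; a few others were named after their values were seen. The ribosomal protein genes and the stage pairs for differences between bisphenol effects were also chosen after seeing the data. One gene among those most correlated with the tissue isoforms is not reported here.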

Additional observations from a re-analysis of the deposited data

Results flagged for a closer look

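In 80 groups of 4 libraries (the 5 tissue isoforms and their 5 partners at 8 stages), 4 were flagged for a library whose gap to the nearest other exceeded Dixon's critical share of the range, and chance flags about 1 in 20 groups. Cox6a2 at day 6 and in NPCs, with 1 count in 1 library and 0 in the others, also had such a gap but is not among the 4. In RA EBs Cox6a2 was at 0 in every library and had no range. Ndufa4l2 in day 4 EBs was at 9.02 FPKM with DMSO, above the other 3. Cox6b1 in ESCs was lowest with BPS at 418.2 FPKM. Cox7a2 was lowest with DMSO in day 4 EBs at 72.94 FPKM and with BPS in day 6 EBs at 83.56 FPKM.

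The bisphenol effect (3 bisphenol libraries relative to 1 DMSO library) differed between stages for 6 members in stage pairs chosen after values were seen, and each difference rests on 1 DMSO library per stage. No share of all genes stands beside this count, so the 6 are no result about the members as a group. The pairs were picked because these values differed, so the p-values restate that choice and support nothing further, and an effect of the bisphenols cannot be told apart from any other difference of the DMSO library. For Ndufa4l2 the effect at day 20 exceeded that at day 4 by 2.58 ± 0.36 (log2, adjusted p = 5.2e-05 by edgeR) and that at day 12 by 1.32 ± 0.38 (adjusted p = 0.038 by edgeR). For Cox6b2 day 20 exceeded day 12 by 0.996 ± 0.29 (adjusted p = 0.040 by edgeR). In NPCs minus RA EBs the difference was 2.20 ± 0.22 for Cox8a, -0.78 ± 0.13 for Ndufb9, 0.87 ± 0.19 for Uqcrq and -0.59 ± 0.15 for Cox5b (adjusted p = 2.6e-06, 0.0018, 0.014 and 0.043 by edgeR). Neither effect passed on its own for Cox5b.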

How the results depend on the processing

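With an absolute log2 change of 1 or more also required, members called numbered 4 for day 4 relative to ESCs, 1 each for days 6, 9 and 12 relative to the stage before, 2 for day 20 relative to day 12, 3 for RA EBs relative to day 4, 3 for NPCs relative to RA EBs, and 9, 9 and 8 for day 20 relative to ESCs, NPCs relative to ESCs and NPCs relative to day 20, in place of 32, 19, 18, 12, 33, 24, 26, 36, 41 and 40. No share of all genes stands beside the counts in this paragraph, so they describe the dependence on settings only. Without all BPA, BPF or BPS libraries there were 12, 12 and 12 at day 6 and 7, 5 and 7 at day 12, and at day 9 11 without BPA and 11 without BPS. For bisphenols against DMSO the length offset left 0 members at day 4 and 1 at day 20, where other size factors and DESeq2 gave 4 and a filter of 5 CPM gave 6. Leaving out 1 library gave 0 to 1 members for BPS relative to DMSO over stages, and for bisphenols within a stage 1 to 2 at day 4, 0 to 2 at day 9 and 2 to 4 at day 20. Direction turned for Cox6b1 at day 20 relative to day 12 with the length offset (0.0452), for Cox8a in NPCs relative to RA EBs with the offset (0.0025) and without the DMSO libraries (0.022), and on log2(FPKM + 1) and log2(FPKM + 0.1) at day 20 relative to ESCs for Ndufs3 (0.073 and 0.074) and Ndufa10 (0.077 and 0.078). The causes were not tested. The Cox4i2 to Cox4i1 ratio in NPCs relative to RA EBs lost its call at a pseudocount of 1 (-0.77). Of the other values for single genes, 1162 kept direction and call and 106 lost the call under settings that leave out no single library, and 737 kept them and 62 lost the call with 1 library left out. The labels give no replicate numbers to pair libraries by. The stage fit instead blocked libraries by treatment, and without that term each count of members called between stages stayed within 1.5 times. Low counts limit Cox6a2, which had 0 to 4 per library at days 4, 6 and 9 and in both neural stages.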
